A study of Rattus norvegicus with 170 samples.

Results

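The study reported that GNF4877 makes some β-cells of rat islets enter the cell cycle. The comparison made here asks which transcripts go with that of the mitotic cyclin gene *Ccnb1* among β-cells of the same treated sample. Division itself was not measured in these cells. The cells were chosen by their own RNA values. GNF4877 cells with at least 300000 RPM (reads scaled to the mapped reads of each cell) on the listed transcripts and 1000 RPM or more of *Ins1* were taken as β-cells. Those with 10 RPM or more of *Ccnb1*, which encodes cyclin B1, formed the Ccnb1-high group, and those with no *Ccnb1* read formed the Ccnb1-zero group. The 11 Ccnb1-high and 39 Ccnb1-zero cells made up 50 of the 84 GNF4877 cells, and of the 170 cells in the study. Of the remaining GNF4877 cells, 8 had 1000 RPM or more of *Ins1* and *Ccnb1* between the limits (6 of them with 1 *Ccnb1* read), 23 had less *Ins1* and 3 fell below the RPM minimum.

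Whole islets from 8-week-old male, wild-type Sprague Dawley rats were cultured for 48 h in 5.5 mM glucose with 3 μM GNF4877, an aminopyrazine inhibitor of the kinases DYRK1A and GSK3B, or with 0.1% DMSO as vehicle control. Dispersed cells were captured on Fluidigm C1 chips, their cDNA was amplified with the SMARTer kit, and Nextera XT libraries were read as single 50 bp reads. The labels name no animal, culture or second chip, and each plate had its own sequencing lane, so each treatment counts as 1 sample. Cells of 1 sample are not replicates and the groups were split on a measured transcript, so no test was made and the values are a description. The 75 DMSO cells with 1000 RPM or more of *Ins1* are given only as a reference, since treatment, chip and lane cannot be told apart between them and the GNF4877 cells.

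A dividing cell copies its DNA in S phase, grows through G2 and separates its chromosomes in mitosis. Replication genes are switched on by E2F factors around the entry into S phase, and genes for the mitotic spindle and for cytokinesis follow in G2 under FOXM1 and the MYB-MuvB complex. Adult β-cells seldom divide and are specialised for making insulin, a secretory load that keeps the endoplasmic reticulum and its stress response busy.

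The depth of both groups overlapped. Ccnb1-high cells had 661387 to 2171567 mapped reads, and a median of 7527 genes with a read (4294–8660). Ccnb1-zero cells had 583474 to 2011480 mapped reads and a median of 6948 genes (4569–8126). With each cell drawn down to 100000 reads, the medians were 5264 and 4824 genes.

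*Ccnb1* and *Ins1* made the groups and are not results. *Ccnb1* ran from 19.1 RPM in GNF4877 cell 17 to 912 RPM in cell 16, with a median of 392 RPM. Cell 17 lay just inside the limit, and the nearest cell outside it was GNF4877 cell 95, with 6.85 RPM from 12 reads. *Ins1* ran from 18651 to 184281 RPM in Ccnb1-high cells (median 36796 RPM) and from 2435 to 63576 RPM in Ccnb1-zero cells (median 18580 RPM). The lowest cell of each group thus lay above the *Ins1* limit.

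The labels cycling and non-cycling were checked on 2 transcripts outside the rule. *Top2a*, the topoisomerase that untangles replicated DNA, reached 10 RPM in 10 of 11 Ccnb1-high cells (90.9%, 95% Clopper-Pearson interval 58.7–99.8%) and in 1 of 39 Ccnb1-zero cells (2.56%, 0.0649–13.5%). *Mki67*, the gene of the Ki-67 antigen of cycling cells, did so in 7 of 11 (63.6%, 30.8–89.1%) and in 4 of 39 cells (10.3%, 2.87–24.2%). These intervals cover counting of cells alone. Lower levels were common, since 29 of the 39 Ccnb1-zero cells had at least 1 *Top2a* read although 28 of them stayed below 10 RPM, whereas 74 of the 75 DMSO cells had none. Of the 23 GNF4877 cells with less *Ins1*, only 7 had no *Top2a* read, and their median was 1.25 RPM, against 1.18 RPM in Ccnb1-zero cells. A few reads of *Top2a* were thus common across the GNF4877 cells and not particular to the Ccnb1-zero group. Their source was not tested.

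Cell by cell the labels held for most members and failed for a few. Over 138 genes of the replication, mitotic cyclin, spindle, cytokinesis and topoisomerase lists described below, Ccnb1-high cells had 11 to 103 genes at 10 RPM or more (median 78). Ccnb1-zero cells had 8 to 68 (median 14) and DMSO cells 9 to 116 (median 20). The Ccnb1-high cell with 11 genes was cell 78, and the Ccnb1-zero cell with 68 was cell 26. The groups are therefore called by their rule, Ccnb1-high and Ccnb1-zero.

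**Figure D1:**
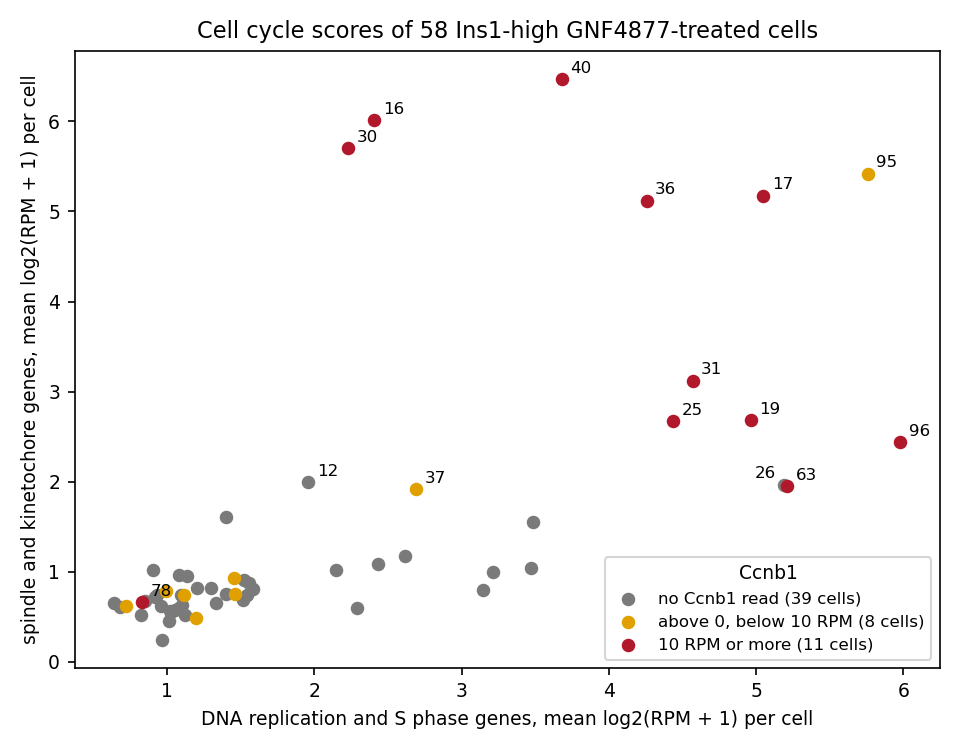
Each point is 1 of the 58 GNF4877 cells with 1000 RPM or more of *Ins1*, coloured by *Ccnb1* level and placed by its mean log2(RPM + 1) over the S phase genes (horizontal axis) and over the spindle genes (vertical axis), with selected cell numbers. Ccnb1-high cells 16, 30 and 40 have high spindle scores with S phase scores of 2.41, 2.23 and 3.68, and cell 78 lies among the Ccnb1-zero cells.

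Across the transcriptome, 15722 genes had a read in the 50 cells and 10294 passed the filter of a read in at least 10 cells. The filter counts cells of both groups, so a gene can pass mainly through the Ccnb1-high cells. A gene was called higher or lower when the log2 ratio of mean RPM, with 1 RPM added to both means, reached 1 (a 2-fold difference). By this measure 1330 genes (12.9%) were higher and 1960 (19%) lower in Ccnb1-high cells, and the median log2 ratio was −0.10. A mean follows the most extreme cells, so a second measure averaged log2(RPM + 1) over the cells of each group and took the difference. It called 1552 genes higher (15.1%) and 923 lower (8.97%), with a median of 0.02. The share of calls that were higher thus moved from 40.4% to 62.7% with the measure (50.4% on the first measure when genes needed a mean of 10 RPM), and the balance between higher and lower genes is not a result. Both measures called 881 genes higher (8.56%) and 695 lower (6.75%). With no filter, 2318 of the 15722 genes (14.7%) were higher and 3383 (21.5%) lower, the shares set beside the counts of list members with a read.

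The S phase genes covered licensing, the replication fork, nucleotide supply and histone chaperones. Of 53 genes, each with a read in the 50 cells, 46 were higher and 2 lower, with a median log2 ratio of 2.34. The genes that were lower, *Cdt1* and *Blm*, were read in 6 and 4 cells, and *Cdt1* stood at −1.49, at 0.16 without Ccnb1-zero cell 11 and at −2.89 without Ccnb1-high cell 63. *Blm* was at −3.45 (without Ccnb1-zero cell 80, −2.14). Of the 39 genes past the filter, 34 were higher and none lower against 12.9% and 19% of genes. By the second measure 36 were higher, against 15.1%.

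*Rrm2*, which encodes the small subunit of ribonucleotide reductase, showed the widest gap of the S phase list. It was at 0 in cell 78 and at 72.2 to 779 RPM in the other Ccnb1-high cells (median of the group 336 RPM). Ccnb1-zero cells had no read in 29 of 39 cells and a highest value of 35.2 RPM, in cell 12. The groups thus overlapped only through cell 78, and the log2 ratio was 7.08. *Rrm1*, the large subunit, had means of 516±348 RPM and 48.6±116 RPM, a log2 ratio of 3.38.

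*Pcna*, the sliding clamp of DNA polymerase, was the most abundant gene of the list. It ran from 0 to 1557 RPM in Ccnb1-high cells (median 816 RPM) and from 0 to 659 RPM in Ccnb1-zero cells (median 116 RPM), a log2 ratio of 2.34. The groups overlapped, with 6 of 11 Ccnb1-high cells above every Ccnb1-zero cell. *Mcm6* and *Mcm4*, parts of the replicative helicase, had log2 ratios of 2.57 and 1.62. The repair glycosylase gene *Ung* stood at 0.00.

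The mitotic cyclin and CDK1 list held 20 genes, of which 19 were higher and none lower, with a median log2 ratio of 4.01, against 14.7% and 21.5% of all genes. Of these, 9 passed the filter and each was higher (median 3.77, without Ccnb1-zero cell 23, 4.51). Some passed only through Ccnb1-high cells, such as *Ccnb2*, read in 7 of them and in 6 Ccnb1-zero cells. The filtered count therefore adds no weight to the count over genes with a read. *Cdk1*, the kinase that cyclin B1 activates, was at 0 in cell 78 and at 44.1 to 895 RPM in the other Ccnb1-high cells, with a median of 359.7 RPM over the 11. In Ccnb1-zero cells it was at 0 in 21 cells and reached 95.9 RPM in cell 86, and 9 of 11 Ccnb1-high cells exceeded that. The log2 ratio was 5.86 (without Ccnb1-zero cell 86, 6.45).

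The kinase gene *Pbk* had the highest ratio of this list. It had a median of 254 RPM and a highest value of 1118 RPM in Ccnb1-high cells, and 3.45 RPM at most in Ccnb1-zero cells. Its log2 ratio of 8.49 rested on 10 reads in the Ccnb1-zero group. *Mastl*, encoding a kinase that shields CDK1 substrates from dephosphorylation, stood at 4.24, and at 7.37 without Ccnb1-zero cell 26. The smallest ratio among the named members belonged to *Cks1b*, an adaptor of CDK complexes, at 1.67.

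The cyclin gene *Ccnb2*, closest in function to *Ccnb1*, did not follow it in every cell. It was at 0 in 4 of 11 Ccnb1-high cells, with a median of 207 RPM and a highest value of 651 RPM. Ccnb1-zero cell 12 held 348 RPM of *Ccnb2*, and without this cell the log2 ratio rose from 4.49 to 7.35. *Foxm1*, the transcription factor of the G2 programme, was named after its values were seen. It was read in 6 Ccnb1-high cells (highest 327 RPM) and in 3 Ccnb1-zero cells with 3 reads in all, a log2 ratio of 5.93 (without Ccnb1-high cell 17, 5.16).

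Spindle and kinetochore genes numbered 39 in the table of 40 listed. Of these, 36 were higher and 1 lower, against 14.7% and 21.5% of all genes, and the median log2 ratio was 3.67, or 3.90 with the genes unread in Ccnb1-zero cells set to a bound of 3 reads over the group (0.0581 RPM). The gene that was lower, *Sgol1*, was read in 2 cells and not lower without Ccnb1-zero cell 65 (0.15). Of the 27 genes past the filter, 25 were higher and none lower, against 12.9% and 19% of genes. Some passed only through Ccnb1-high cells, such as *Tacc3*, read in 8 of them and in 3 Ccnb1-zero cells. The filtered count therefore adds no weight to the count over genes with a read.

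*Nusap1*, a microtubule bundler of the spindle, showed the highest ratio here. It was at 0 in 4 Ccnb1-high cells and had a median of 227 RPM and a highest value of 846 RPM, against at most 6.21 RPM in Ccnb1-zero cells. The log2 ratio was 7.58. *Hmmr*, which encodes another spindle-associated protein, stood at 5.84 (without Ccnb1-zero cell 26, 6.77), and *Cenpf*, a kinetochore gene, at 6.43 (without Ccnb1-zero cell 12, 7.29).

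Some members of the kinetochore list were widely read in both groups. *Zwint*, which links the kinetochore to the spindle checkpoint, was the most abundant of the list and stood at −0.35, with means of 779±665 RPM and 996±801 RPM. *Zwilch*, a neighbour in the same checkpoint assembly, was read in each of the 50 cells. Its log2 ratio of 1.04 fell below 1 without any of Ccnb1-high cells 31 (0.76), 36 (0.83), 40 (0.97) or 78 (0.99).

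Cytokinesis and chromosomal passenger genes were higher for 16 of 16, against 14.7% of all genes, with a median log2 ratio of 4.54 (4.73 with the unread gene at its bound). *Prc1*, which bundles the midzone microtubules between separating chromosomes, was the most abundant. It ran from 0 to 1741 RPM in Ccnb1-high cells (median 133 RPM) and to 143 RPM in Ccnb1-zero cells (median 0.734 RPM). The log2 ratio was 5.71 (without Ccnb1-zero cell 12, 6.50).

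*Ect2*, which starts the contractile ring, stood at 4.71 (without Ccnb1-zero cell 22, 6.52). *Shcbp1*, whose protein acts late at the midbody, had the highest ratio of this list. It was at 0 in 2 Ccnb1-high cells, reached 434 RPM in cell 31, and had 2 reads in the whole Ccnb1-zero group, a log2 ratio of 6.86. *Aurkb*, the passenger kinase, had 1246 RPM in cell 17 alone, and without that cell its log2 ratio fell from 3.74 to 2.19 (without Ccnb1-zero cells 39 or 29, 4.64 or 4.55). *Kif20b*, a kinesin of the midbody, stood at 1.66, but 1063 RPM in Ccnb1-zero cell 11 held it down, and without that cell it was 3.62.

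Topoisomerase II, Ki-67 and the condensin complexes compact and resolve chromosomes. Of these 10 genes, 9 were higher and none lower, against 14.7% and 21.5% of all genes, with a median log2 ratio of 2.51 (without Ccnb1-zero cell 18, 3.18). *Top2a* ran from 6.83 RPM in cell 19 to 2408 RPM in cell 16 (median 629.7 RPM). In Ccnb1-zero cells its median was 1.18 RPM and its highest value 53.4 RPM in cell 22, so 10 of 11 Ccnb1-high cells lay above every Ccnb1-zero cell. The log2 ratio was 7.75.

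*Mki67* was less even than *Top2a*. It was above 200 RPM in 6 Ccnb1-high cells (205 to 2303 RPM), at 29.8 RPM in cell 63, below 5 RPM in cells 25, 31 and 19, and at 0 in cell 78. Ccnb1-zero cells 87 and 11 had 318 and 120 RPM. The log2 ratio was 5.60 (without Ccnb1-zero cell 87, 6.70). *Smc4* and *Smc2*, the shared core of the condensins, stood at 3.65 and 2.23, and *Ncaph2*, specific to condensin II, at −0.15 (without Ccnb1-zero cell 11, 0.71).

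**Figure D2:**
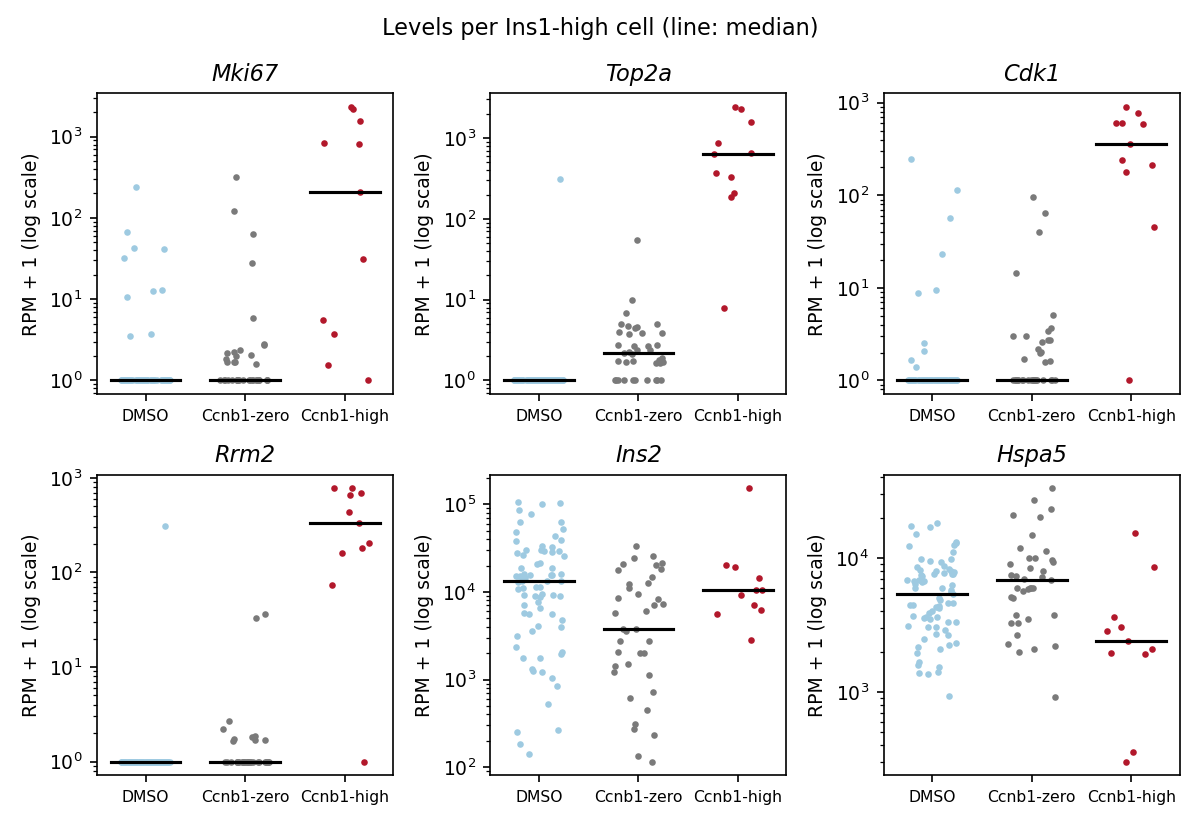
RPM + 1 on a log axis in single cells for 6 genes in 75 DMSO, 39 Ccnb1-zero and 11 Ccnb1-high cells, with lines at the medians. *Top2a* and *Rrm2* separate most Ccnb1-high cells from the others, while *Ins2* and *Hspa5* overlap, with a median of *Hspa5* of 2387 RPM in Ccnb1-high and 6842 RPM in Ccnb1-zero cells.

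The 11 Ccnb1-high cells differed among themselves in which part of the cycle their transcripts covered. A score per cell, the mean log2(RPM + 1) over a list, was used. For S phase it ran from 0.83 to 5.98 (median 4.44) in Ccnb1-high cells and from 0.64 to 5.19 (median 1.20) in Ccnb1-zero cells. For the spindle it ran from 0.66 to 6.47 (median 3.12) and from 0.24 to at most the score of cell 12 (median 0.75). Only 2 Ccnb1-high cells exceeded every Ccnb1-zero cell in the S phase score, against 9 in the spindle score.

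Cells 16, 30 and 40, with the most *Ccnb1* (912, 876 and 856 RPM), had the highest spindle scores (6.01, 5.70 and 6.47). They had *Pcna* at 129, 96.1 and 288 RPM and *Mcm6* at 147, 0 and 17.1 RPM. Their *Cdc20*, the activator of the anaphase-promoting complex, was at 816, 433 and 843 RPM, and their *Prc1* at 1237, 1172 and 1741 RPM. Other members of the replication list were high in some of them, with *Rrm2* at 659, 181 and 779 RPM and *Rrm1* at 925, 55.4 and 810 RPM.

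Cells 25, 19, 96 and 63 had higher S phase than spindle scores. Their S phase scores were 4.44, 4.97, 5.98 and 5.21, and their spindle scores 2.67, 2.68, 2.44 and 1.95. *Mcm6* was at 903, 503, 1218 and 1371 RPM, whereas *Cenpf* was at 0.656, 2.73, 0 and 19.9 RPM. Other spindle genes were read in some of them, with *Hmmr* at 0, 108, 60.8 and 388 RPM. Cells 36 and 17 were high in both scores (4.26 with 5.12, and 5.05 with 5.18). Cell 31 (4.57 with 3.12) lay between them and cells 25, 19, 96 and 63. The grouping was made after the values were seen, and no doublet caller was run.

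Cell 78 stood apart. It held 392 RPM of *Ccnb1* and 207 RPM of *Top2a* but no read of *Mki67*, *Cdk1*, *Rrm2*, *Pcna* or *Cdc20*. It also had the fewest genes (4294) and the fewest reads (661387) of the group, with 184281 RPM of *Ins1* and 152865 RPM of *Ins2*. The part of depth and of the insulin share in its missing cycle transcripts was not tested.

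In the Ccnb1-zero group, several cells carried parts of the programme. Cell 26 had 68 of the 138 cycle genes at 10 RPM or more, an S phase score of 5.19 and a spindle score of 1.97, with *Top2a* at 3.45 RPM and *Mki67* at 0.690 RPM. Among the genes that reached 10 RPM in a Ccnb1-zero cell, it was the highest such cell for 20. Its *Rrm2* (31.8 RPM) and *Top2a* lay below those of cells 25, 19, 96 and 63. Cell 50 had 46 genes, cell 68 had 37 and cell 12 had 34. Cell 50 also had 41535 RPM of *Ppy*, the pancreatic polypeptide gene.

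Of 17 genes of the anaphase-promoting complex and mitotic exit list, 6 were higher and 1 lower, against 14.7% and 21.5% of all genes, and the median log2 ratio was 0.53. *Cdc20* had a median of 158 RPM in Ccnb1-high and at most 1.97 RPM in Ccnb1-zero cells, a log2 ratio of 7.77. *Ube2c*, which primes ubiquitin chains, stood at 6.24 (without Ccnb1-high cell 16, 5.54, and without Ccnb1-zero cell 87, 7.15), and *Ube2s*, which extends them, at 2.51 (without cell 16, 1.32, and without Ccnb1-zero cell 12, 3.11).

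*Fbxo5*, encoding the inhibitor EMI1, had 484 reads in 6 Ccnb1-high cells and none in Ccnb1-zero cells, at least 8.78 higher on the log2 scale against a bound of 3 reads over the group (with 1 RPM added to both means 4.73, and 3.68 without Ccnb1-high cell 36). *Fzr1*, the other activator, was read in 5 cells (3.26, but −1.24 without Ccnb1-high cell 16 and 4.53 without Ccnb1-zero cell 26). The core subunits differed, with *Anapc11* at 0.53, *Anapc5* at 0.51 and *Cdc16* at −0.22, and 2 of them were called. *Anapc4* stood at 1.20 (without Ccnb1-high cells 19 or 40, 0.69 or 0.91). *Anapc1* stood at −1.07 and between −0.99 and −0.79 without any of Ccnb1-high cells 17 and 40 or Ccnb1-zero cells 22, 24, 65 and 74.

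Chromatin, lamina and tubulin genes of dividing cells were measured for 26 genes, of which 18 were higher and none lower, against 14.7% and 21.5% of all genes, with a median log2 ratio of 1.67. *Kpna2*, a nuclear import receptor, ran to 6193 RPM in Ccnb1-high cells (median 839 RPM) and to 646 RPM in Ccnb1-zero cells (median 82.2 RPM), a log2 ratio of 3.40. *Stmn1*, encoding the microtubule regulator stathmin, stood at 3.96 and *H2afz*, a histone variant gene, at 1.95. Both tubulin genes named, *Tuba1b* (1.66) and *Tubb5* (1.93), were also higher. The chromatin score of cell 78, 0.45, lay below the lowest Ccnb1-zero cell at 2.78.

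Promoters of the cycle lists were also read, over all members matched to a promoter and whatever their log2 ratio. In the 200 bases before the start of the gene, 2 short motifs were counted on both strands, TTTGAA, the core of the cell cycle homology region bound by MuvB complexes, and CCAAT, the NF-Y motif. RefSeq promoters of the rat build GRCr8 matched 12 of 16 cytokinesis genes, 15 of 20 mitotic cyclin genes, 36 of 40 spindle genes, 10 of 10 topoisomerase and condensin genes and 42 of 53 S phase genes. TTTGAA was in 9 of the 12 cytokinesis promoters, 7 of 15 mitotic cyclin (46.7%), 12 of 36 spindle (33.3%), 6 of 10 topoisomerase and condensin, and 4 of 42 S phase promoters (9.52%). In the other cell cycle lists it was in 11 of 27 chromatin promoters (40.7%), 3 of 9 G1, 1 of 14 anaphase-promoting complex and 1 of 10 inhibitor promoters. Of all 33469 promoters 12.6% held it, and 7.28% of the 6226 of genes past the filter, so the S phase share lay between these backgrounds.

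CCAAT was in 22 of 42 S phase (52.4%), 19 of 36 spindle (52.8%), 10 of 15 mitotic cyclin (66.7%), 21 of 27 chromatin (77.8%), 7 of 12 cytokinesis, 7 of 14 anaphase-promoting complex, 5 of 10 topoisomerase and condensin, 4 of 10 inhibitor and 3 of 9 G1 promoters, against 29.2% of all promoters and 31.9% of those of genes past the filter. The E2F-type sequences TTTGGCGC and TTTCCCGC were in 9 of 42 S phase promoters (21.4%) against 1.01% of all and 2.06% of those past the filter, and in 1 of 36 spindle promoters. A match is a description of letters and not a bound site.

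Distance between the motifs was also read, over a range of 25 to 40 bases chosen after the positions were seen. Of 172 promoters of the 9 cell cycle lists, 40 held both motifs, and in 12 of these (30%) a CCAAT began 25 to 40 bases upstream of a TTTGAA. Of all 33469 promoters, 1306 held both and 144 of them (11.03%) had that distance. Shown are the 4 promoters with the highest log2 ratio among the 31 genes past the filter and called higher that held both, to let the spacing be seen. Each is on the minus strand, written 5′ to 3′ and ending at the base before the start, with both motifs in capitals (ATTGG and TTCAAA are the same motifs on the other strand). They are *Cdc20* (chr5:137255800-137255999), *Top2a* (chr10:84473094-84473293), *Tacc3* (chr14:81289699-81289898) and *Kif22* (chr1:191080879-191081078), the last 2 encoding a spindle protein and a chromosome-moving kinesin.
Cdc20: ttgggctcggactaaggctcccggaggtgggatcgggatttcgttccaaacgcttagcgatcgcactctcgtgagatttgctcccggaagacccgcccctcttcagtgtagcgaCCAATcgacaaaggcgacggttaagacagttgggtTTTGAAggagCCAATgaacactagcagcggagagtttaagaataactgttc
Top2a: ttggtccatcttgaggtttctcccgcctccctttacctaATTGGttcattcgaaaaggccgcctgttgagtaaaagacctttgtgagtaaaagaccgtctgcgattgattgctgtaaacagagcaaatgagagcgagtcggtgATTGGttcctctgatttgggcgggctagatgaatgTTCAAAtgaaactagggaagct
Tacc3: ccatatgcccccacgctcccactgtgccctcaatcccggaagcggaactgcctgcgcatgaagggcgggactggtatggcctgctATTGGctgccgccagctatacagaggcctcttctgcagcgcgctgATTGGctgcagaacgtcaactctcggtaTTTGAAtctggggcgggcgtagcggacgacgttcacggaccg
Kif22: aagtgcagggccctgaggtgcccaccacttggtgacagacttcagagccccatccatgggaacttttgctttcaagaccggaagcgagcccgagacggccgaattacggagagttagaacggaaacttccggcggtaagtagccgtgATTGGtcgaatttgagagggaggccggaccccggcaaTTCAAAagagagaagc
The TTTGAA began 51, 22, 42 and 16 bases before the start and the nearest CCAAT upstream was 35, 35, 28 and 37 bases away in that order. The log2 ratios of *Tacc3* and *Kif22* were 7.02 (without Ccnb1-zero cell 26, 7.86) and 5.88.

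G1 cyclins, their kinases and the RB family govern the decision to enter the cycle. Of 13 genes with a read, 5 were higher and 1 lower, against 14.7% and 21.5% of all genes, with a median log2 ratio of 0.28. The D-type cyclins differed little, with *Ccnd1* at 0.51 (without Ccnb1-high cell 19, −0.79) and *Ccnd2* at 0.17, and their partner *Cdk4* was at −0.25. *Cdk2*, the kinase of S phase, ran from 0.921 to 674 RPM (median 302 RPM) in Ccnb1-high cells against a median of 3.48 RPM and a highest value of 579 RPM in Ccnb1-zero cells, a log2 ratio of 1.78. The groups overlapped.

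The pocket protein genes *Rbl2* and *Rbl1*, which restrain E2F targets, stood at 2.37 (without Ccnb1-high cell 96, 1.49) and 2.17 (without Ccnb1-high cell 19, 0.81, and without Ccnb1-zero cell 80, 3.29). *E2f5* and *Tfdp2*, read in 4 cells each, were also higher. *E2f4*, a repressor E2F, stood at −2.12, at −0.59 without Ccnb1-zero cell 86 and at −3.17 without Ccnb1-high cell 25.

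Of 9 inhibitor genes of the cycle with a read, 5 were higher and none lower, against 14.7% and 21.5% of all genes, with a median log2 ratio of 1.11. *Cdkn3*, a phosphatase gene that is itself expressed in mitosis, stood at 4.20. *Cdkn2d* (p19) stood at 2.73, *Cdkn2c* (p18) at 2.19 and *Cdkn1b* (p27) at 1.11, and the mean of each in Ccnb1-zero cells was below 10 RPM. Single cells moved several of them, since *Cdkn2d* was 1.87 without Ccnb1-high cell 16 and 3.42 without Ccnb1-zero cell 41, and *Cdkn1b* 0.86 or 0.95 without Ccnb1-high cells 16 or 31. *Men1*, the menin gene, stood at 1.32 but at −4.45 without Ccnb1-high cell 25 (without Ccnb1-zero cell 21, 2.02). *Cdkn1c* and *Cdkn2a* had no read.

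**Figure D3:**
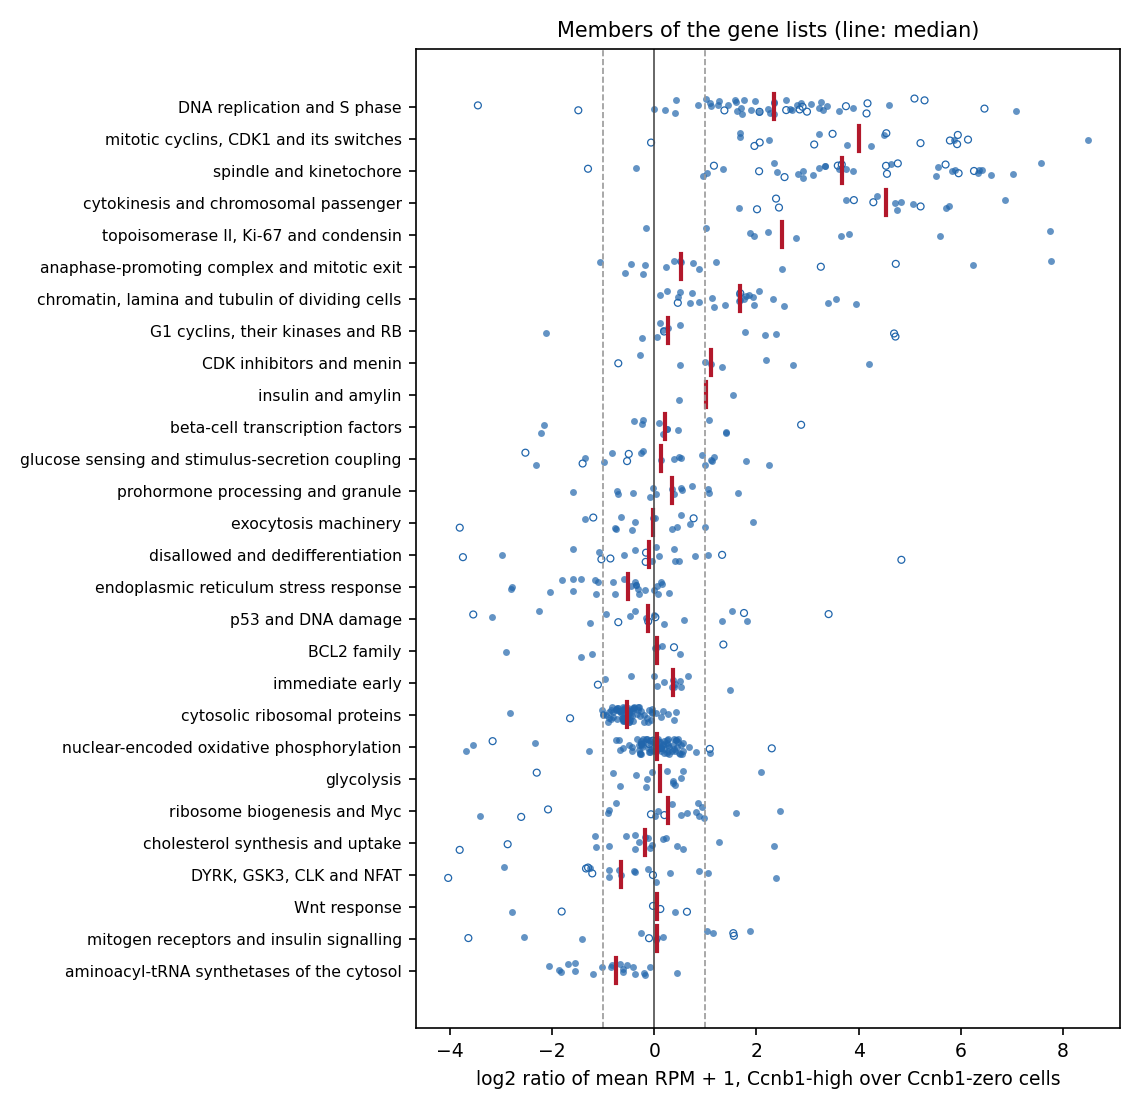
Each point is the log2 ratio of mean RPM + 1, Ccnb1-high over Ccnb1-zero cells, of 1 member of a gene list (filled, read in at least 10 of the 50 cells; open, in fewer), with a line at the median of the members with a read and dashed lines at 2-fold. The medians run from 4.54 for cytokinesis to −0.75 for the aminoacyl-tRNA synthetases.

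Transcripts of β-cell function were then compared. *Ins2*, the second rat insulin gene, ran from 2796 to 152865 RPM in Ccnb1-high cells (median 10416 RPM) and from 115 to 33272 RPM in Ccnb1-zero cells (median 3790.2 RPM). The log2 ratio of 1.54 was decided by cell 78, which held 59.1% of the sum, and without it was 0.38. By the mean of logs the difference was 1.76, and 10 of 11 Ccnb1-high cells lay above the Ccnb1-zero median. *Iapp*, the amylin gene, stood at 0.48 on the ratio and 1.88 on the log measure. The insulin transcripts of Ccnb1-high cells were therefore not below those of Ccnb1-zero cells, within a group chosen on *Ins1*. *Ins1* itself was unequal between the groups, and its part in the values of this and the other β-cell lists was not tested.

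Of 14 β-cell transcription factors with a read, 4 were higher and 2 lower, against 14.7% and 21.5% of all genes, with a median log2 ratio of 0.21. *Pdx1* and *Nkx6-1*, named after their values were seen, both stood at 0.25, and *Neurod1*, the most abundant, at −0.23. Among the higher were *Nkx2-2*, read in 3 cells (2.88, without Ccnb1-high cell 19, 0.53), *Insm1* (1.41, without Ccnb1-high cell 25, 0.90) and *Foxa2* (1.41, without Ccnb1-high cell 16, −1.15, and without Ccnb1-zero cell 29, 2.15). *Mlxipl*, the carbohydrate-response factor, was at −2.21 (without Ccnb1-high cell 25, −3.84, and still at 2-fold without Ccnb1-zero cell 10) and *Myt1* at −2.16 (without Ccnb1-high cell 17, −3.51). Past the filter 3 genes were higher, of which only *Insm1* and *Foxa2* are named here. Each call named here past the filter moved with 1 cell. By the log measure 2 genes of the list were higher and none lower, against 15.1% and 8.97% of genes. None was called by both measures. *Mafa* and *Hnf4a* had no read in the 50 cells.

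Genes of glucose sensing and stimulus-secretion coupling were higher for 5 and lower for 4 of 21, against 14.7% and 21.5% of all genes, with a median log2 ratio of 0.14. *Slc2a2*, the glucose transporter GLUT2, had medians of 4474 RPM and 921 RPM but a log2 ratio of means of only 0.48. *Abcc8*, the sulfonylurea receptor subunit of the KATP channel, stood at 0.53 by means and 2.28 by logs, with no Ccnb1-high cell below 56.4 RPM. For both genes the medians lay further apart than the means.

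The genes called higher were *Gpr119* (2.24, without Ccnb1-high cell 63, 1.11), *Cacna1c* (1.798, without Ccnb1-high cell 96, 0.02), *Trpm5* (1.18, without Ccnb1-high cell 17, 0.66), *Ucn3* (1.13, without Ccnb1-high cells 63 or 31, 0.67 or 0.98) and *Gipr* (1.12, without Ccnb1-high cells 96, 16 or 63, 0.56, 0.79 or 0.85). Those called lower included *Glp1r*, the incretin receptor gene (−1.36, without Ccnb1-high cell 16, −2.25), *Pc* (−2.31, without Ccnb1-zero cell 46, −0.11, and without Ccnb1-high cell 36, −3.03), and *Gjd2*, read in 4 cells (−2.52, without Ccnb1-zero cell 6, −0.11). Of those past the filter, only *Gpr119* and *Glp1r* kept their side of 2-fold on leaving out any 1 cell. The log measure called 7 of the 17 genes past the filter higher and none lower, against 15.1% and 8.97% of genes. By both measures 4 were higher, against 8.56%, and *Glp1r* was at −0.75 by the log measure.

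Prohormone processing and granule genes were higher for 3 and lower for 1 of 15, against 14.7% and 21.5% of all genes, with a median log2 ratio of 0.35. *Scg2*, a granin and the most abundant, stood at −0.71, and *Slc30a8*, the granule zinc transporter named after its values were seen, at 0.52. *Chga* (1.65), *Chgb* (1.07) and *Cpe* (1.04) were called higher by means through single cells, at 0.27, 0.28 and −0.06 without Ccnb1-high cells 78, 19 and 78 (*Chgb* also at 0.73 without Ccnb1-high cell 31). By the log measure *Chga* (2.40) and *Chgb* (1.84) were higher as well, and *Cpe* stood at 0.31. *Ptprn*, the granule membrane protein IA-2, was lower, at −1.59, with 9 of 11 Ccnb1-high cells below the Ccnb1-zero median of 86.8 RPM.

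The exocytosis machinery had 1 gene higher and 3 lower of 17, against 14.7% and 21.5% of all genes, with a median log2 ratio of −0.03. *Snap25*, the plasma membrane SNARE, stood at 0.35 and *Syt4*, a calcium sensor of granule release, at −0.77. *Rims2* was higher at 1.93 (without Ccnb1-high cell 96, 0.69, and without Ccnb1-zero cell 90, 2.63). *Syt13* (−1.36), *Stx1a* and *Unc13a* were lower, and *Syt13* was at −0.17 without Ccnb1-zero cell 44 and at −3.43 without Ccnb1-high cell 17. *Stx1a* and *Unc13a* were read in 5 and 7 cells, and *Stx1a* turned from −1.19 to 0.74 without Ccnb1-zero cell 1 (without Ccnb1-high cell 36, −3.55). *Unc13a* was at −3.81, and at −1.40 without Ccnb1-zero cell 93 (without Ccnb1-high cell 40, −4.41). No gene of this list was called by both measures.

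Genes that mature β-cells keep silent, with markers of dedifferentiation, gave 3 higher and 5 lower of 20, against 14.7% and 21.5% of all genes, with a median of −0.10 (0.07 with unread genes at their bounds). *Igfbp4* (1.05, without Ccnb1-high cells 31 or 78, 0.45 or 0.66), *Gast* and *Aldh1a3* were higher, the last 2 through cell 78. *Slc16a1* (−2.99, without Ccnb1-zero cells 50 or 79, −2.23 or −2.29), *Arap2* (−1.59, without Ccnb1-high cell 30, −5.08), *Lmo4* (−1.08, from −2.67 without Ccnb1-high cell 17 to 0.46 without Ccnb1-zero cell 54, and −0.99 without Ccnb1-zero cell 29 or any other Ccnb1-high cell), *Smad3* and *Tst* were lower. *Smad3* was read in 1 cell, and *Tst* in 2 Ccnb1-zero cells (−1.03, without cells 60 or 74, −0.47 or −0.75). When *Ccnb1* above 0 made the high group, *Arap2* turned to 0.051 and *Tst* to 2.50. *Ldha*, the lactate dehydrogenase gene low in β-cells, stood at 0.41. Of the 13 past the filter, 1 was higher and 3 lower by means, against 12.9% and 19% of genes. By the log measure 3 were higher and none lower, against 15.1% and 8.97%. None was called by both, so no direction is given for this list.

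Part of the endoplasmic reticulum stress response was lower in Ccnb1-high cells. The response includes the chaperones, the sensors and the translation block that cells raise when secretory proteins misfold. Of 26 genes, each past the filter, none was higher and 10 were lower by each measure (8 by both), against 19% and 8.97% of genes, with medians of −0.52 and −0.67. The score ran from 3.55 to 6.55 (median 5.73) in Ccnb1-high cells and from 4.55 to 8.35 (median 6.42) in Ccnb1-zero cells. Of the 11 Ccnb1-high cells, 10 lay below the Ccnb1-zero median, within overlapping ranges. DMSO cells had a median of 7.53, above both. That gap was not particular to this list. DMSO cells had a median of 8956 genes with a read, against 7527 in Ccnb1-high and 6948 in Ccnb1-zero cells. Their median score was also above both groups for exocytosis (4.38, against 3.25 and 3.06), but below both for cholesterol synthesis (3.00, against 3.98 and 3.95). The part of the number of genes read in the DMSO scores was not tested.

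*Hspa5*, encoding the chaperone BiP, was the most abundant gene of this list. It ran from 301 RPM in cell 78 to 15240.5 RPM in cell 63 (median 2387 RPM) in Ccnb1-high cells, and from 917 to 33147 RPM (median 6842 RPM) in Ccnb1-zero cells. The log2 ratio was −1.17, and 9 of 11 Ccnb1-high cells lay below the Ccnb1-zero median. Cells 36 and 63 were the exceptions, at 8592 and 15240.5 RPM.

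Of the same list, *Asns*, *Ddit3* and *Ppp1r15a* are named after their values were seen. *Asns*, asparagine synthetase, stood at −1.44, *Ddit3*, the factor CHOP, at −2.04 (without Ccnb1-high cell 17, −2.64), and *Ppp1r15a*, which restarts translation, at −1.80 (without Ccnb1-high cell 25, −2.60). *Atf6*, a sensor, was at −1.60 and *Dnajb9*, a co-chaperone, at −1.11 (without Ccnb1-high cells 63 or 31, −0.97 or −0.99, and just short of 2-fold without cell 40). The foldases *Pdia3* (−0.01) and *Pdia6* (0.14) did not take part, so the list did not move as a block.

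Aminoacyl-tRNA synthetases of the cytosol were added as a list after 2 of them, *Qars* and *Nars*, appeared among the most lowered genes outside the lists. They charge tRNAs with amino acids. Of 20 genes, each past the filter, none was higher and 8 were lower, against 19% of genes past the filter, with a median log2 ratio of −0.75. By the log measure 9 were lower, against 8.97%. *Lars*, for leucine, had a median of 61.3 RPM (0–143) in Ccnb1-high cells and of 172 RPM in Ccnb1-zero cells, so each of the 11 Ccnb1-high cells lay below the Ccnb1-zero median, and its log2 ratio was −2.07. *Nars*, for asparagine, stood at −1.82 and *Sars*, for serine, at −1.68.

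The score of this list ran from 2.20 to 6.29 (median 4.71) in Ccnb1-high cells and from 3.19 to 8.03 (median 5.81) in Ccnb1-zero cells. *Yars* (0.44) and *Dars* (−0.08) showed little difference. Because the list was chosen from its leading genes, its count describes those genes and adds no weight to them.

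**Figure D4:**
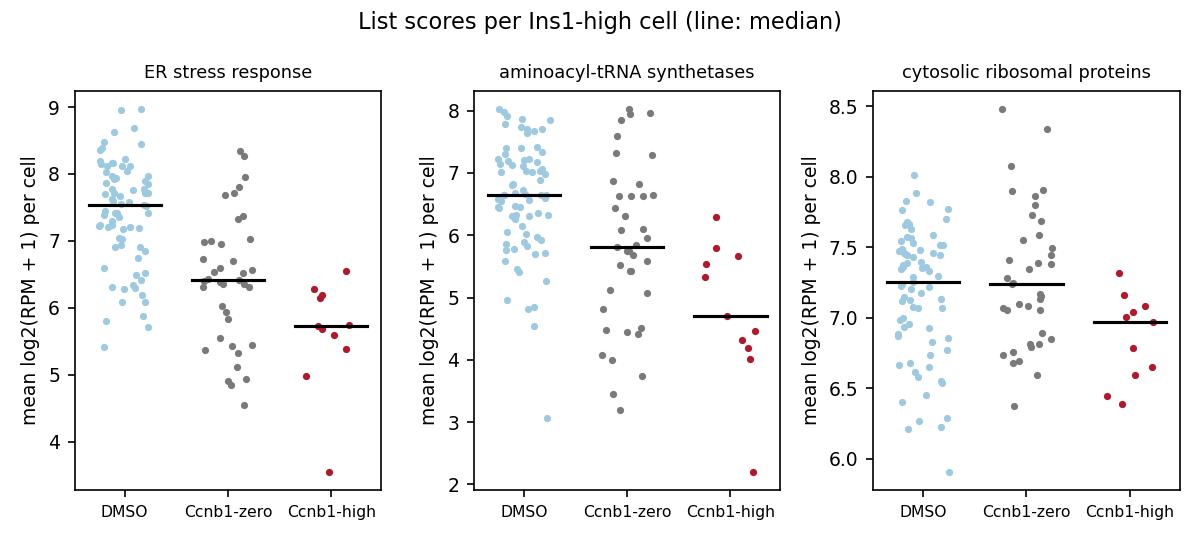
Mean log2(RPM + 1) per cell over the endoplasmic reticulum stress response, cytosolic aminoacyl-tRNA synthetase and cytosolic ribosomal protein lists in 75 DMSO, 39 Ccnb1-zero and 11 Ccnb1-high cells, with lines at the medians. In each list 10 of 11 Ccnb1-high cells lie below the Ccnb1-zero median, and the ranges overlap.

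Few ribosomal protein genes of the cytosol were called. Of 80 with a read, none was higher and 4 were lower (*Rpl10l*, *Rpl22l1*, *Rpl37* and *Rpl39l*), against 14.7% and 21.5% of all genes, and the median log2 ratio was −0.53. Of the 79 past the filter, 1 was higher and 1 lower by the log measure, against 15.1% and 8.97% of genes, with a median of −0.49. In the median gene, the Ccnb1-high cell had the higher value in 31.7% of pairs of a Ccnb1-high and a Ccnb1-zero cell. Their summed mean RPM was 20226 in Ccnb1-high and 28965 in Ccnb1-zero cells. *Rplp0*, the most abundant, ran from 1034 to 3109 RPM (median 1484 RPM) against 683 to 6096 RPM (median 2418 RPM), a log2 ratio of −0.61. Only Ccnb1-high cell 31 lay above the Ccnb1-zero median. *Rpl37* stood at −1.01 and *Rpl22l1* at −1.02, so close to 2-fold that many single cells decided the call. *Rpl37* lay short of it, as far as −0.93, without any of Ccnb1-high cells 16, 17, 19, 31, 40 and 96 or Ccnb1-zero cells 18, 21, 44, 46, 50, 54, 56, 61, 81 and 86. *Rpl22l1* did, as far as −0.89, without any of Ccnb1-high cells 19, 31, 63, 78 and 96 or Ccnb1-zero cells 18, 24, 39, 46, 56, 72, 81, 87 and 93. *Rpl10l* was at −2.83 and *Rpl39l* was read in 1 cell. RPM are shares of a cell's reads, and the part of a larger total in dividing cells was not tested.

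Genes of the DNA damage response gave 5 higher and 4 lower of 19, against 14.7% and 21.5% of all genes, with a median of −0.12 (−0.00 with the unread gene at its bound). *Mdm2*, which encodes a ubiquitin ligase, had a median of 2.86 RPM in Ccnb1-high and 150.4 RPM in Ccnb1-zero cells. Its log2 ratio was −2.25 (without Ccnb1-high cell 31, −2.98), and 10 of 11 Ccnb1-high cells lay below the Ccnb1-zero median. *Ccng1*, which encodes cyclin G1, stood at −1.26, also with 10 of 11 below, and *Sesn2*, a stress-response gene, at −3.17. *Fas* was lower too, read in 9 cells, but turned to 0.69 when *Ccnb1* above 0 made the high group.

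On the higher side of that list were *Gadd45a* (1.81, without Ccnb1-high cell 16, 1.13), *Aen* (1.53, without Ccnb1-high cell 19, 0.20), *Xpc* (1.33, without Ccnb1-high cells 36 or 25, −0.21 or 0.98, and without Ccnb1-zero cell 80, 2.39), and *Ddb2* and *Sesn1*, read in 4 cells each (3.41 and 1.76, without Ccnb1-high cells 36 and 31, −0.20 and −0.29). *Cdkn1a*, the inhibitor p21, was read in 6 cells. Of the 13 genes of the list past the filter, 3 were higher and 3 lower by means, against 12.9% and 19% of genes. By both measures 1 was higher and 3 lower, against 8.56% and 6.75%. The medians were −0.15 by means and 0.17 by logs, so the list did not share a direction.

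The BCL2 family had 1 gene higher (*Bok*, read in 2 cells, 1.35, without Ccnb1-high cell 17, −0.83, and without Ccnb1-zero cell 18, 2.19) and 3 lower of 9, against 14.7% and 21.5% of all genes, with a median of 0.05. Over the 7 past the filter the median was 0.02, and −1.08 without Ccnb1-high cell 36. *Mcl1*, a short-lived survival gene, stood at −2.91, *Bcl2l1* (BCL-XL) at −1.21 (without Ccnb1-high cell 96, −2.81) and *Bak1* at −1.43. When *Ccnb1* above 0 made the high group, *Bcl2l1* turned to 0.48. Among 14 immediate early genes 1 was higher and 1 lower, against 14.7% and 21.5% of all genes, with a median of 0.36. The log measure called 4 of 13 past the filter higher and none lower, against 15.1% and 8.97% of genes. *Egr1* was higher, with medians of 109.9 and 1.18 RPM and a log2 ratio of 1.48, and *Klf4*, read in 6 cells, was lower at −1.10. That call ended without any of Ccnb1-zero cells 21, 45 and 79 (−0.45, −0.87 and −0.52) or any of 10 Ccnb1-high cells (−0.99), and *Klf4* was at −3.31 without Ccnb1-high cell 96.

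Metabolic lists were compared next. Among 89 genes of nuclear-encoded oxidative phosphorylation, 3 were higher and 5 lower, against 14.7% and 21.5% of all genes, with a median of 0.06 (0.08 with unread genes at their bounds). The genes that were lower included *Cox6a2*, a cytochrome oxidase subunit gene (−3.69, without Ccnb1-high cells 19 or 40, −4.62 or −4.31), with *Ndufaf1* (−3.55, without Ccnb1-high cell 40, −5.45), *Atp5sl* (−2.34, without Ccnb1-high cells 17 or 36, −3.12 or −3.04), *Sdha* (−1.28, without Ccnb1-high cell 96, −2.19) and *Ndufaf6*, which no Ccnb1-high cell read. *Ndufv1* (1.10, without Ccnb1-high cells 19, 17 or 63, 0.62, 0.83 or 0.92), *Atp5s* and *Ndufa4l2* were higher, the last 2 read in 4 and 2 cells, and *Ndufa4l2* turned from 1.09 to −0.14 without Ccnb1-high cell 17.

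Glycolysis had a median of 0.10 over 14 genes. *Pfkm* was higher through cell 16 (2.09, without it −1.08) and *Aldoc*, read in 8 cells, was lower. *Aldoa*, the aldolase gene and the most abundant, stood at −0.80, with 10 of 11 Ccnb1-high cells below the Ccnb1-zero median of 8505 RPM. Ribosome biogenesis and MYC genes had a median of 0.27 over 20 genes (0.43 with unread genes at their bounds). *Polr1a* (2.46) and *Rrs1* (1.60) were higher through cells 17 and 36, and stood at −1.44 and 0.19 without them (*Rrs1* at 2.34 without Ccnb1-zero cell 26). *Pes1* (−3.41, without Ccnb1-high cell 17, −5.14), *Myc* and *Gar1* were lower, the last 2 read in 9 and 8 cells. Of the 16 ribosome biogenesis genes past the filter, the log measure called 4 higher and 3 lower, against 15.1% and 8.97% of genes, with 1 lower by both measures, and 1 of 13 glycolysis genes was lower. No gene of these 2 lists was called higher by both measures.

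Cholesterol synthesis and uptake had a median of −0.19 over 19 genes, with 2 higher and 4 lower, against 14.7% and 21.5% of all genes. Past the filter, 3 of 17 were higher and 5 lower by the log measure, against 15.1% and 8.97% of genes. *Fdps* (−1.15) and *Fdft1* (−1.16, without Ccnb1-high cell 96, −1.84), enzymes before and at squalene synthesis, were lower, the first below 2-fold without Ccnb1-zero cell 92 (−0.96) and the second without Ccnb1-zero cell 18 (−0.79). *Stard4*, read in 9 cells, was lower as well. *Dhcr7*, an enzyme of the last steps, was at 2.35 (without Ccnb1-high cell 31, 1.47), and *Mvd* at 1.27 (without cell 31, −0.30).

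GNF4877 acts on kinases, and transcripts of its target families were compared although a transcript does not report kinase activity. Over 19 genes of the DYRK, GSK3, CLK and NFAT list, 2 were higher and 6 lower, against 14.7% and 21.5% of all genes, with a median of −0.66. Of the 14 past the filter 2 were higher and 2 lower, against 12.9% and 19% of genes. By both measures 2 were higher and 1 lower, against 8.56% and 6.75%. The median past the filter was −0.38 (−0.09 by logs). *Gsk3b* had means of 96.3±143 RPM and 232±302 RPM, a log2 ratio of −1.26. *Dyrk1a* was read in 8 of the 50 cells, with 1 read in 1 Ccnb1-high cell, too few to describe.

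*Ppp3cb*, a catalytic subunit of calcineurin, which activates NFAT, stood at 2.38, and *Rcan2*, a calcineurin regulator gene, at 1.06 (without Ccnb1-high cells 16, 63 or 25, 0.56, 0.82 or 0.90). *Nfatc3*, an NFAT factor, was at −2.94 by means and −0.12 by logs (by means without Ccnb1-zero cell 72, −2.21). β-catenin, *Ctnnb1*, was at −2.79, and *Rnf43*, read in 3 cells, was the other lower gene (−1.81, without Ccnb1-zero cell 24, −0.56) among 6 Wnt response genes with a read, whose median was 0.05 (0.50 with unread genes at their bounds, and −1.19 over the 2 past the filter). *Lef1*, *Nkd1*, *Lgr5*, *Sp5* and *Notum* had no read in the 50 cells, and *Znrf3* was not in the table.

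Mitogen receptor and insulin signalling genes were higher for 5 and lower for 3 of 13, against 14.7% and 21.5% of all genes, with a median of 0.05. *Ghr*, the growth hormone receptor, had medians of 26.9 RPM and 0 RPM and a log2 ratio of 1.87 (without Ccnb1-zero cell 47, 3.01). *Irs2* (1.15, without Ccnb1-high cells 36 or 63, 0.57 or 0.89, and without Ccnb1-zero cell 93, 1.82) and *Akt1* (1.04, without Ccnb1-high cells 25, 96 or 16, 0.39, 0.71 or 0.86, and without Ccnb1-zero cell 39, 1.70) were higher, by means through single cells, and *Insr* and *Erbb3* were each read in 1 cell. By the log measure *Irs2* (1.27) and *Akt1* (1.17) were higher too. On the lower side, 2 genes passed the filter, of which only *Igf2r* is named here, at −1.41 (without Ccnb1-high cell 16, −4.18). *Egfr*, also lower, was read in 7 cells.

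Some markers of other cell types were widely read. Summed α-cell markers (8 genes, 3 with a read in Ccnb1-high cells) had a median of 614 RPM in Ccnb1-high and 352 RPM in Ccnb1-zero cells, led by *Gcg* and *Gc* (10 RPM or more of *Gc* in 9 of 11 and 29 of 39 cells), with *Irx1*, *Irx2* and *Pou3f4* unread in both. *Gcg* reached 37011 RPM in Ccnb1-high cell 31, whereas the group median was 70.0 RPM, and its log2 ratio fell from 5.16 to −0.31 without that cell. *Ppy* stood at −7.04 through Ccnb1-zero cell 50 and at 0.87 without it (without Ccnb1-high cell 31, −8.27). *Sst*, the δ-cell hormone, reached no more than 7.88 and 72.9 RPM.

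Duct markers had medians of 106 and 188 RPM, led by *Krt7*, which reached 10 RPM in 7 of 11 and 32 of 39 cells. The summed acinar, endothelial and glial markers had a median of 0 in both groups. Mesenchymal markers had medians of 1.38 and 0.706 RPM and immune markers of 0.656 and 0.809 RPM, with *Cd74* the leading immune gene, up to 615 RPM in Ccnb1-high cell 63 and 981 RPM in Ccnb1-zero cell 46. The authors kept only sites in which microscopy showed 1 cell, and the sources of *Gcg* in cell 31 and *Ppy* in cell 50 were not tested.

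Of the 12 genes outside the lists with the largest log differences, 6 are described here, and the other 6 carry provisional or pseudogene symbols. *Cdca3*, a mitotic entry gene, had a median of 273 RPM in Ccnb1-high cells and at most 1.20 RPM in Ccnb1-zero cells, a log2 ratio of 7.55. *Cenpt*, a kinetochore gene, stood at 7.44 (without Ccnb1-zero cell 26, 8.06), *Tcf19*, a gene induced at the entry into S phase, at 4.92 (without Ccnb1-zero cell 26, 5.95), *Ube2t*, of the DNA crosslink repair pathway, at 4.88 (without Ccnb1-zero cell 26, 6.12), and *Haus3*, of the augmin complex of the spindle, at 3.70. For *Cenpt*, 10 of 11 Ccnb1-high cells lay above every Ccnb1-zero cell.

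*Fxyd6*, which encodes a regulator of the sodium pump, is not a cell cycle gene. It was read in each Ccnb1-high cell (40.7 to 3369 RPM, median 297 RPM), above the Ccnb1-zero median of 1.37 RPM in each, and had a log2 ratio of 2.96 (without Ccnb1-high cell 31, 1.87). Its mean in DMSO cells was 283 RPM, a mean that cannot be set beside these medians. The high end of the range thus came from cell 31, but the difference in medians did not.

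On the lower side, *Hist1h2bh*, a histone H2B gene, had a median of 36.7 RPM in Ccnb1-zero cells and no read in 7 of 11 Ccnb1-high cells, a log2 ratio of −2.84 (without Ccnb1-high cell 36, −4.71). *Hbp1*, a repressor of cell cycle genes, had means of 20.1 and 209.5 RPM, a log2 ratio of −3.32. *Zfand2a*, a stress-inducible gene, stood at −1.99 (without Ccnb1-high cell 16, −2.83), *Opa1*, of mitochondrial fusion, at −3.19 (without Ccnb1-high cell 36, −6.21), and *Spint1*, a protease inhibitor gene, at −2.80.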

How the data were processed

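Single cells of rat islets treated with DMSO or GNF4877 were measured by Fluidigm C1 RNA sequencing. Per the submitters' processing notes, the authors used CASAVA 1.8.2, BWA 0.5.9 and SAMtools 0.1.19. The deposited values are RPM, reads on a transcript scaled by the mapped reads of the cell, and 0.01 marks no read and was set to 0. The notes give a mouse transcriptome as the alignment target, yet the identifiers in the table belong to rat RefSeq. Its 27586 transcripts were summed to 24113 genes by symbol. Reads were recovered from the smallest RPM step of each cell (values of at most 20 reads were whole to a tolerance of 0.1 in 100%). The authors kept samples with over 100000 mapped reads whose capture site held 1 cell by microscopy, and no doublet caller was run here. Genes read in at least 10 of the 50 cells were compared by the ratio of mean RPM, with 1 RPM added, and called at 2-fold. Members and gene lists were chosen with earlier results of these data known.

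Named genes were *Ccnb1*, *Mki67*, *Top2a*, *Ins1* and *Ins2*, in each list the 4 with the highest mean and those with the highest and lowest ratio, outside the lists genes drawn from the 12 highest and 12 lowest by log difference (past 2-fold by both measures and read in 50% of the higher group), and members of counts of 5 or fewer. A few genes that these rules pick are not reported here. Others were named after their values were seen. Alternatives covered the pseudocount, measure, depth, thresholds, filter, second hormones, summing of transcripts and single cells. Intervals are Clopper-Pearson and cover counting alone. Promoters were those of RefSeq, build GRCr8. Calculations ran in Python 3.11.15 with pandas 2.3.3 on numpy 2.4.6, intervals came from scipy 1.17.1 and plots from matplotlib 3.10.9. The code was tested on simulated data.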

Additional observations from a re-analysis of the deposited data

Results flagged for a closer look

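GNF4877 cell 95 belonged to neither group, since its 12 *Ccnb1* reads gave 6.85 RPM. It held 1075 RPM of *Top2a* and 793 RPM of *Mki67*, above the highest DMSO cells (310.3 and 239.8 RPM) and above each Ccnb1-zero cell. Its spindle score of 5.42 and its S phase score of 5.76 also exceeded the highest DMSO values, 5.18 and 5.57. It had 100 of the 138 cell cycle genes at 10 RPM or more, below the 116 of a DMSO cell, and its mitotic cyclin score of 4.19 was below the highest DMSO value of 4.60. The reason was not tested.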

How the results depend on the processing

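Each alternative changed 1 choice, and the cause of a changed value was not tested. The alternatives that left out single Ccnb1-zero cells or those with *Mki67* or *Top2a*, and that counted GNF4877 cell 95 among the Ccnb1-high cells, were chosen after seeing the data. No paired analysis was possible because no label ties a Ccnb1-high cell to a Ccnb1-zero cell. List medians here are over genes past the filter, and start from 3.77 for mitotic cyclins, 3.62 for the spindle, 4.79 for cytokinesis, 2.51 for topoisomerase, 1.01 for insulin and amylin, 0.02 for BCL2, −1.19 for Wnt (2 genes), and −2.25, −7.04 and 2.71 for δ-cell, pancreatic polypeptide and mesenchymal markers (1 gene each). Of 609 values of list medians, 566 moved by less than 1.5-fold, 38 moved further and 5 turned direction. Of 3384 values of 188 genes the numbers were 2855, 495 and 34. Each value counted here as turned started at 2-fold or more. A change of sign from a smaller value was not counted as turned. The BCL2 median, at −1.08 without Ccnb1-high cell 36, is 1 such value, and *Ccnd1* and *Ncaph2* also changed sign without 1 cell.

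With a pseudocount of 10 RPM, 854 genes were higher and 1066 lower, and the medians of the mitotic cyclin, spindle and cytokinesis lists were 2.88, 2.58 and 3.39. With no filter, 2318 and 3383 genes were called and the Wnt median, then over 6 genes, was 0.048. By the log measure 923 genes were lower, the insulin and amylin median was 1.82, and *Cdt1* (0.10), *Men1* (−0.66) and *Pc* (0.15) turned. With a mean of at least 10 RPM the mitotic cyclin, spindle and Wnt medians were 4.37, 4.54 and −2.79. Thinned to 100000 reads the spindle median was 2.96.

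With *Ccnb1* above 0, the mitotic cyclin, cytokinesis and Wnt medians were 2.94, 4.14 and −0.068. The δ-cell median and *Sst* turned to 6.37, and *Arap2* (0.051), *Bcl2l1* (0.48), *Fas* (0.69) and *Tst* (2.50) turned. With *Ccnb1* of 100 RPM or more, *Bok* (−0.83), *Ndufa4l2* (−0.14) and *Polr1a* (−1.39) turned. Without cells that held a second hormone, the mesenchymal median (−0.086), *Gcg* (−0.29), *Mvd* (−0.30) and *Sesn1* (−0.24) turned. With cell 95 added the topoisomerase median was 3.13 and *Fas* 0.76. Without Ccnb1-zero cells holding 10 RPM of *Mki67* or *Top2a*, *Cdt1* was 1.25.

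Leaving out 1 cell gave medians from 3.23 to 4.51 for mitotic cyclins, 2.35 to 3.18 for topoisomerase, −1.08 to 0.15 for BCL2, −8.27 to 0.87 for pancreatic polypeptide (*Ppy* alone) and −0.072 to 2.84 for mesenchymal markers. Genes that turned ran from −0.83 to 2.19 (*Bok*), −2.89 to 0.16 (*Cdt1*), −0.063 to 1.17 (*Cpe*), −0.20 to 3.54 (*Ddb2*), −1.15 to 2.15 (*Foxa2*), −1.24 to 4.53 (*Fzr1*), −0.31 to 5.29 (*Gcg*), −2.67 to 0.46 (*Lmo4*), −4.45 to 2.02 (*Men1*), −0.30 to 1.73 (*Mvd*), −0.14 to 1.23 (*Ndufa4l2*), −1.08 to 2.60 (*Pfkm*), −1.44 to 2.92 (*Polr1a*), −0.29 to 1.92 (*Sesn1*), −1.44 to 0.15 (*Sgol1*), −3.55 to 0.74 (*Stx1a*) and −0.21 to 2.39 (*Xpc*).

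With 11 cells in the smaller group and 1 sample per treatment, a mean can rest on 1 cell, and genes at a few reads in a cell are not resolved at this depth. Cells are not replicates, and the spread between animals is unknown.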
